A study of Mus musculus with 17 samples.

Results

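The replication-dependent and linker histone genes were described in RNA-seq libraries of newborn mouse testes and forebrain from pups that differed in osteocalcin, a hormone made by osteoblasts. The members are the 76 genes, of 55359 in the deposited table, whose mouse gene symbol starts with H1f, H2ac, H2bc, H3c or H4c. They comprise 12 linker histone genes (H1), 20 H2A, 19 H2B, 12 H3 and 13 H4 genes. The members were chosen by their symbols and no measured value entered the rule, but the family was selected on earlier results of these data, its expression values included, so nothing is tested over the family as a whole. All pups were male, at postnatal day 1, and of the Ocn-deficient strain made by homologous recombination and kept on a 129/SvEv background. WT pups were born to WT mothers (2 testes and 3 forebrains). The study's forebrain heatmap was drawn from 2 WT forebrains, without saying which of the 3 was left out. Ocn+/− pups (3 testes and 3 forebrains) and Ocn−/− pups (3 testes and 3 forebrains) were all born to Ocn−/− mothers. Against WT, effects of the pup's alleles, of the mother and of the litter cannot be told apart, whereas Ocn−/− and Ocn+/− pups shared the maternal genotype. The sample labels call the brain tissue hippocampus and the study calls it forebrain, with the hippocampus included. Nothing says whether libraries of a genotype came from separate litters, so p-values measure only the spread between these libraries.

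Histones package DNA: H2A, H2B, H3 and H4 form the nucleosome core, and H1 binds the linker DNA between nucleosomes. Most genes of these families are replication-dependent, lie in clusters and are expressed in S phase, when new DNA has to be packaged. Their mRNAs end in a conserved stem-loop, bound by the stem-loop binding protein Slbp, in place of a poly(A) tail. H1f0 and H1f10, in contrast, encode linker histones made outside S phase from ordinary polyadenylated mRNAs, and H1f0 is known to rise as cells differentiate. The RNA of all libraries was selected with poly-T beads before sequencing. The counts of a stem-loop histone gene therefore give what passed that selection, such as transcripts that run past the stem-loop to a poly(A) site, and not its RNA in the cell.

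The ends of the annotated transcripts were read from the genome build GRCm39 with the GENCODE M39 annotation, to show which members have the stem-loop. Of the 73 members with an annotated stop codon, 62 had a match to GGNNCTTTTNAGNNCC within 100 bases after the stop codon on the coding strand, against 6 of 21463 other protein-coding genes (0.028%). The match began 21 to 58 bases after the stop codon. The letters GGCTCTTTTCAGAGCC were found in 40 members and none of them was an H4 gene, and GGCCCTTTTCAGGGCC was found in 8 H4 genes. Below are the matches, in capitals, with 5 bases on either side, of H1f2, H2ac25, H2bc27, H2bc4 and H4c9, whose values are described below, of H1f4, H4c4 and H4c8, which were highest in a single forebrain library, and of H2ac18, which was read in forebrain and not in testes. The loops lie at chr13:23923495-23923510 (H1f2), chr11:58845998-58846013 (H2ac25), chr11:58840175-58840190 (H2bc27), chr13:23868630-23868645 (H2bc4), chr13:22225136-22225151 (H4c9), chr13:23805765-23805780 (H1f4), chr13:23765933-23765948 (H4c4), chr13:23715628-23715643 (H4c8) and chr3:96153348-96153363 (H2ac18). H4c9 and H1f4 lie on the minus strand and the others on the plus strand, and all sites are in the 3′ UTR.
H1f2: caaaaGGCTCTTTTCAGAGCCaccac
H2ac25: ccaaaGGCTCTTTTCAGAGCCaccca
H2bc27: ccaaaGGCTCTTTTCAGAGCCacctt
H2bc4: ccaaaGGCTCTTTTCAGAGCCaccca
H4c9: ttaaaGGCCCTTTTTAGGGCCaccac
H1f4: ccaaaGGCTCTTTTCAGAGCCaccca
H4c4: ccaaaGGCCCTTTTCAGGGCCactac
H4c8: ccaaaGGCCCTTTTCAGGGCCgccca
H2ac18: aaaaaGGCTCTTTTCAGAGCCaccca
The H1f2, H2ac25, H2bc27 and H2bc4 loops were letter for letter the same. The annotated transcript went on for 840 bases after the loop in H1f2, 1643 in H2ac25, 2005 in H2bc4, 171 in H2bc27 and 330 in H4c9. It was as long in members with few reads, with 1153 bases in H1f4, 770 in H4c4 and 4884 in H1f3. In all, 25 of the 62 stem-loop members had an annotated transcript more than 100 bases past the loop (called extended here), and the other 37 had at most 74 annotated bases past it. In 15 of the 37 the annotated gene ended before the loop. The 11 members with a stop codon and no match were H1f0, H1f10, H1f7, H1f8, H1f9, H2ac22, H2bc21, H2bc23, H2bc24, H3c8 and H4c1. The poly(A) hexamer AATAAA stood in the last 50 bases of 8 of these 11, of 13 of the 25 extended members and of 0 of the 37 others, and in 57.4% of canonical transcripts of all protein-coding genes.

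Libraries summed to between 7302376 and 8288986 counts in testes and between 6518128 and 14621550 in forebrain, after rounding. Bglap and Bglap2, the targeted osteocalcin genes, had at most 5 counts in any library and so do not check the genotype labels at this age. Marker genes fitted the labelled organs: 12 germ cell genes summed to between 387 and 498 CPM (counts relative to the library's size, scaled with edgeR's TMM factors) in testes and to at most 12.1 in forebrain, and 8 excitatory neuron genes to between 3200 and 4310 in forebrain and at most 57.0 in testes. One library stood apart. In forebrain WT 3, the library with the fewest counts, the 18S rRNA gene held 8.50% of counts, against 0.261% to 0.805% in the other forebrains and 0.0909% to 0.222% in testes. Rn7sk, an abundant nuclear RNA without a poly(A) tail, had 1280 counts in that library and between 74 and 345 in the other forebrains. Forebrain calls are therefore also given without WT 3.

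Few members had more than a handful of counts. Of the 76, 6 had no count in any of the 17 libraries, and 41 in testes and 28 in forebrain never had more than 3 counts in a library. A count of 0 allows a level of up to 0.4125 CPM in the shallowest testis and 0.534 CPM in the shallowest forebrain (3 counts, counting error only). Only 6 genes reached 10 counts in every library of both organs: H1f0, H1f2, H1f10, H2ac25, H2bc4 and H2bc21. H1f0, H1f10 and H2bc21 have no stem-loop match, and the other 3 are extended past it. The 37 stem-loop members that are not extended held 0.640% of the histone counts in testes and 1.34% in forebrain. The 11 members without a match held 92.1% and 67.6%, and the 25 extended members 7.23% and 31.0%.

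**Figure D1:**
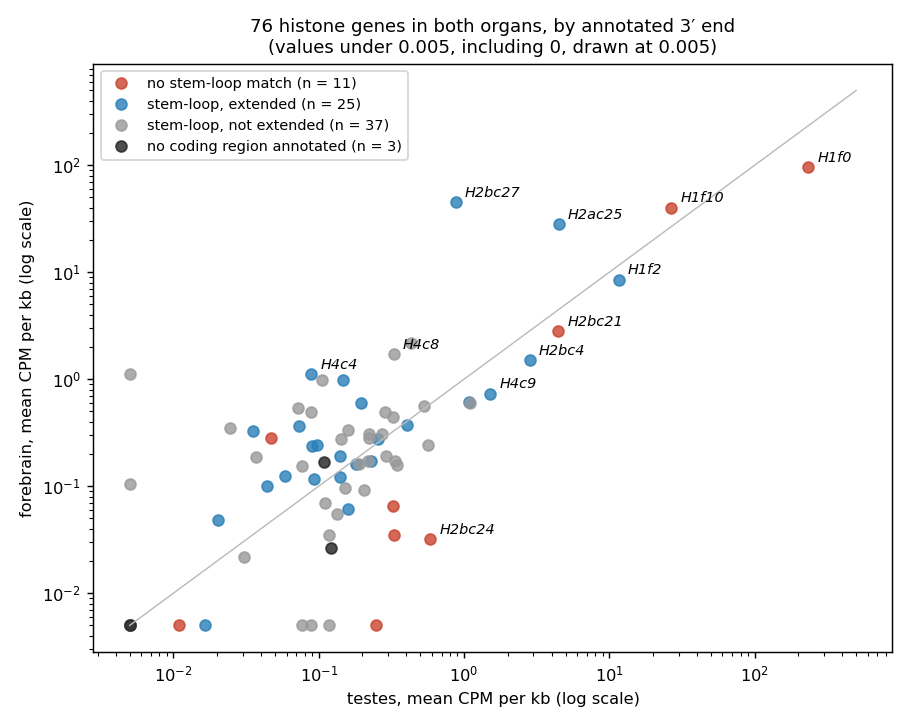
Mean level of each of the 76 histone genes in testes (x axis) and forebrain (y axis), in CPM per kb of annotated transcript, both axes on a log scale, coloured by the annotated 3′ end. Genes without a stem-loop match (red) and genes extended past it (blue) make up all of those above 3 CPM per kb in either organ, and most of the 37 that are not extended (grey) lie below 1.

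The linker histone H1f0 was by far the highest member. Per kb of transcript its mean level was 264 CPM in testes and 85.8 in forebrain, followed in testes by H1f10 at 30.1, H1f2 at 13.1, H2ac25 at 5.09 and H2bc21 at 5.03. Of these, H2ac25 and H2bc21 were not apart: in WT testes alone H2bc21 stood at 5.62, H2bc4 at 5.28 and H2ac25 at 5.14 CPM per kb. In forebrain the order was H1f0, H2bc27 at 40.6, H1f10 at 36, H2ac25 at 25.2 and H1f2 at 7.66, and H2bc27 and H1f10 changed places in Ocn+/− (37.7 and 38.1). H3 and H4 genes stayed low: the highest H3 gene was H3c3 at 0.643 CPM per kb in testes and H3c11 at 0.880 in forebrain, and the highest H4 gene was H4c9 at 1.70 in testes and H4c8 at 1.53 in forebrain. In WT testes alone H3c3 had 0 counts, and H3c14 was the highest H3 gene at 0.631 CPM per kb. The forebrain ranks of H3c11 and H4c8 rested on WT 3. Over the other 8 forebrains H3c15 at 0.477 and H4c9 at 0.494 were the highest of their classes, H3c11 stood at 0.232 and H4c8 at 0.398, and the order of the first 5 genes of the family was the same. H1f0 was the highest member per kb in each of the 17 libraries.

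After the filter on low counts, 10 members could be tested in testes and 11 in forebrain, and the other 66 and 65 could not. In testes H1f0 and H1f2 were lower in both mutant genotypes, in Ocn+/− (2 of 10 tested, both lower) and in Ocn−/− (2 of 10, both lower), while 8.25% and 5.64% of all genes tested changed either way and 4.36% and 3.09% were lower. In forebrain 2 of 11 were lower in Ocn+/− (H1f2 and H2ac25) and 5 of 11 in Ocn−/− (H1f2, H2ac25, H2bc4, H2bc21 and H1f0), with 3.89% and 4.85% of all genes changed and 2.68% and 3.05% lower. No member was higher in any of these comparisons. The calls are those of edgeR's quasi-likelihood test with Benjamini-Hochberg adjustment over all genes of an organ, at an adjusted p under 0.05. The median log2 fold change of the members tested was −0.53 and −0.83 in testes, and −0.50 and −0.80 in forebrain, each time Ocn+/− first, beside medians of all genes between −0.01 and 0.01. Members that passed the filter partly did so through the group where they were high, so these medians describe the genes that passed and not the family. Without forebrain WT 3, 1 member was called in Ocn+/− and 2 in Ocn−/−, with 1.11% and 1.15% of all genes. Below, the libraries of a gene are described as overlapping or not between genotypes. The share of all genes whose libraries separate likewise was not counted, so this describes the libraries only.

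**Figure D2:**
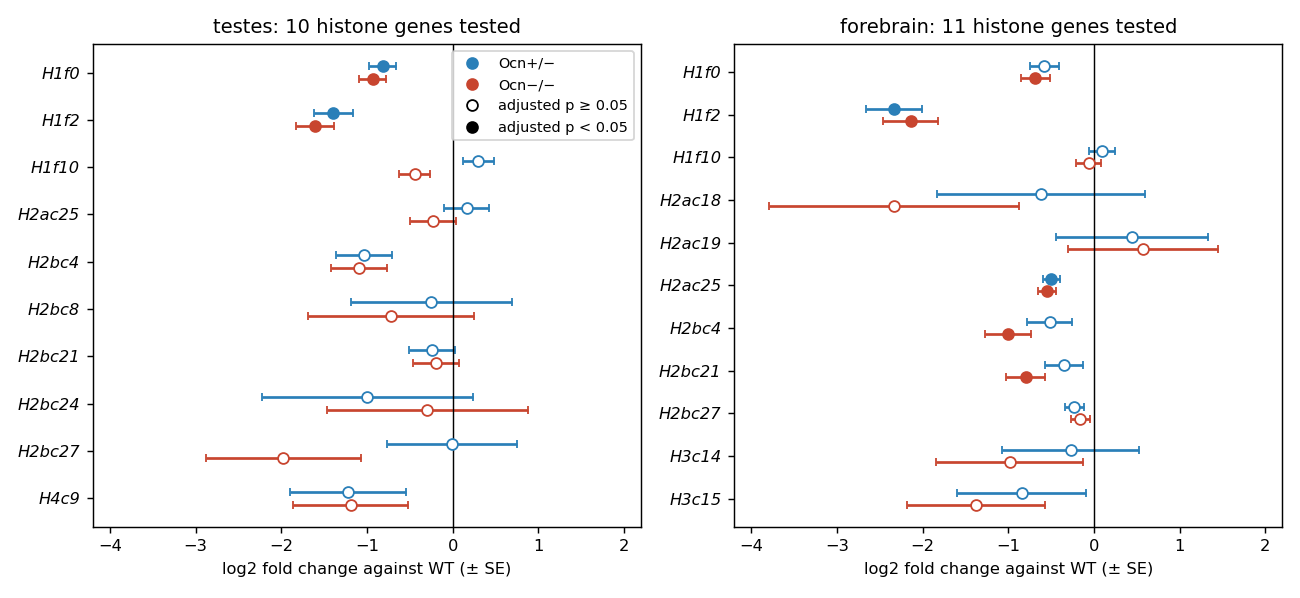
Log2 fold change against WT (x axis, bars ± SE) of the 10 histone genes tested in testes and the 11 tested in forebrain, for Ocn+/− (blue) and Ocn−/− (red); filled points passed an adjusted p of 0.05. The filled points lie left of 0, with H1f2 farthest in both organs, and genes with few reads have wide bars.

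H1f2 encodes H1.2, a replication-dependent linker histone found in most cell types, and its gene (ENSMUSG00000036181.3) spans chr13:23922791-23924350. It showed the largest called changes of the family against WT. In testes H1f2 stood at 35.1 and 44.2 CPM in WT, at 12, 13.9 and 19.5 in Ocn+/− and at 12.3, 10.8 and 15.8 in Ocn−/−. Both WT testes were higher than any of the 6 mutant testes. The log2 fold change was −1.39 ± 0.22 (SE) in Ocn+/− (edgeR adjusted p = 0.00227) and −1.61 ± 0.22 in Ocn−/− (edgeR adjusted p = 0.0007), which is 2.62-fold and 3.05-fold lower. In forebrain H1f2 stood at 20.7, 25.9 and 29.0 CPM in WT, at 2.57, 5.81 and 6.52 in Ocn+/− and at 3.51, 5.63 and 7.83 in Ocn−/−. Again all mutant libraries lay below all WT libraries. There the gene fell by 2.33 ± 0.32 on the log2 scale in Ocn+/− (edgeR adjusted p = 0.00325), 5.04-fold, and by 2.14 ± 0.32 in Ocn−/− (edgeR adjusted p = 0.00508), 4.40-fold. Without forebrain WT 3 the changes were −2.23 (edgeR adjusted p = 0.0211) and −2.03 (edgeR adjusted p = 0.0283). The change in Ocn+/− testes was not called without WT 2 (−1.20, edgeR adjusted p = 0.0647), which leaves a single WT testis. Of all stretches of 50 bases of H1f2, 8.50% also occur in other genes, most of them in H1f3.

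H1f0, which encodes H1.0, is a single-exon gene on chromosome 15 (ENSMUSG00000096210.3, chr15:78912650-78914704). It stood at 788 and 858 CPM in WT testes, at 370, 499 and 532 in Ocn+/− and at 357, 465 and 470 in Ocn−/−. The WT and mutant testes did not overlap. It fell by 0.82 ± 0.16 (log2, SE) in Ocn+/− testes (edgeR adjusted p = 0.0069), 1.76-fold, and by 0.93 ± 0.16 in Ocn−/− testes (edgeR adjusted p = 0.00298), 1.91-fold. In forebrain the levels were 221, 224 and 247 CPM in WT, 118, 166 and 179 in Ocn+/− and 122, 135 and 175 in Ocn−/−. Here too the WT libraries were the 3 highest. The forebrain change was −0.68 ± 0.17 in Ocn−/− (edgeR adjusted p = 0.0496) and −0.58 ± 0.17 in Ocn+/−, which did not pass (edgeR adjusted p = 0.0891) but did with DESeq2 (adjusted p = 0.00207) and with 6 other alternatives, among them no filter on low counts and only the compared genotypes. Without forebrain WT 3 they were −0.63 (edgeR adjusted p = 0.186) and −0.53 (edgeR adjusted p = 0.269). The call in Ocn−/− forebrain was also lost without any one of WT 1, WT 2, Ocn−/− 1, Ocn−/− 2 and Ocn+/− 2, with values of −0.71, −0.70, −0.58, −0.63 and −0.68. In testes, Ocn+/− lost the call without WT 1 (−0.87, adjusted p of 0.0621) or WT 2 (−0.74, adjusted p of 0.121), and Ocn−/− without WT 2 (−0.85, adjusted p of 0.0906). An antisense gene, Gm49544, overlaps H1f0, and the strandedness of the counting is not given in the sources used here.

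H1f10 encodes H1X, a linker histone that is not tied to replication. The gene lies at chr6:87957403-87958619 on the minus strand and has a GC content of 71.3%, the highest of the 6 genes with at least 10 counts in every library. In testes it stood at 36.7 and 37.5 CPM in WT, at 42.8, 42.8 and 51.3 in Ocn+/− and at 26, 21.4 and 34.4 in Ocn−/−. The 3 Ocn+/− testes were thus the highest and the 3 Ocn−/− testes the lowest. None of the differences passed the test: 0.30 ± 0.18 (log2, SE) in Ocn+/− and −0.44 ± 0.18 in Ocn−/− against WT (edgeR adjusted p = 0.315 and 0.157), and −0.74 ± 0.16 in Ocn−/− against Ocn+/− (edgeR adjusted p = 0.155). The last passed with DESeq2 (adjusted p = 0.0227) but shrank to −0.25 with an offset for GC content and length (edgeR adjusted p = 0.673), and the first turned to −0.26 with that offset. In forebrain the gene lay between 34.1 and 53.7 CPM in all 9 libraries, with changes of 0.09 ± 0.15 and −0.06 ± 0.15 whose sign also turned with the processing. H1f10 overlaps an antisense gene, Gm5577.

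The other linker genes were at the limit of detection. H1f6, H1f7, H1f8 and H1f9, the linker histones of male germ cells and oocytes, had no more than 1 count in any library. H1f1 and H1f5 never exceeded 8 counts. H1f3 and H1f4 had at most 12 counts everywhere except in forebrain WT 3, where they had 27 and 67. No member of this group could be tested with the filter on low counts.

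**Figure D3:**
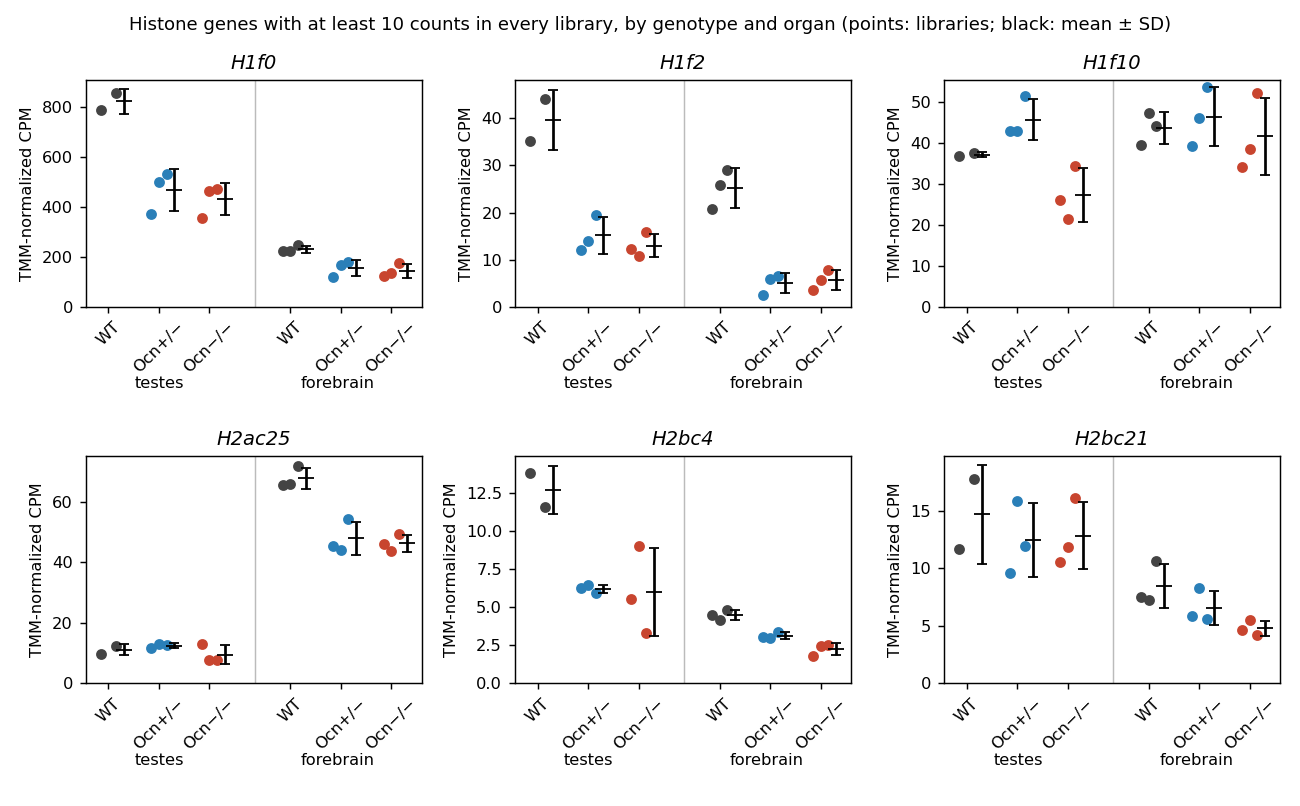
TMM-normalized CPM (y axis) of the 6 histone genes with at least 10 counts in every library, by organ and genotype; points are libraries and black bars the mean ± SD. H1f0, H1f2 and H2bc4 are lower in all mutant libraries than in all WT libraries of the organ, H2ac25 only in forebrain, and H1f10 in testes is highest in Ocn+/− and lowest in Ocn−/−. H2bc4 in testes, H1f0 and H2bc4 in Ocn+/− forebrain and H1f10 were not called. The share of all genes whose libraries separate likewise was not counted.

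Among the H2A genes, H2ac25 alone had a count in every library. It lies outside the large clusters, on chromosome 11 (ENSMUSG00000078851.5, chr11:58845511-58847656), near H2bc26 and H2bc27 and inside the annotated span of Trim17. H2ac25 stood at 65.4, 66.0 and 71.9 CPM in WT forebrain, at 45.4, 43.9 and 54.3 in Ocn+/− and at 46.0, 43.6 and 49.2 in Ocn−/−. The WT forebrains were the 3 highest, and the difference was 1.41-fold in Ocn+/− and 1.46-fold in Ocn−/−. The log2 fold changes were −0.50 ± 0.10 (SE) and −0.55 ± 0.10 (edgeR adjusted p = 0.0101 and 0.00508). Without forebrain WT 3 the first was −0.45 and missed the threshold (edgeR adjusted p = 0.0532), whereas the second was −0.50 and passed it (edgeR adjusted p = 0.0324). Without Ocn+/− 2 the first was −0.44 (edgeR adjusted p = 0.0552). In testes the gene had 9.72 and 12.4 CPM in WT and between 7.46 and 13 in the mutants, and the groups overlapped. Of its 50-base stretches 70.7% are shared with Trim17 on the same strand, so reads of the 2 genes may have been divided between them.

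All 50-base stretches of H2ac18 also occur in the gene model Gm20633, and all those of H2ac19 in Gm20632, so RSEM may have divided their reads with these. The counts of H2ac18 and H2ac19 are given as a sum. The pair had 15, 22 and 9 counts in WT forebrain, 20, 33 and 18 in Ocn+/− and 14, 28 and 16 in Ocn−/−, without any order by genotype. In testes it had between 0 and 9 counts, and as separate genes neither was called between genotypes in forebrain. H2ac24, second of its class in testes, had 2 and 0 counts in WT, 9, 6 and 10 in Ocn+/− and 8, 2 and 0 in Ocn−/−, and did not pass the filter in either organ. H2ac1, an H2A of male germ cells, had no count in any library.

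The H2B class held 3 genes with a level of their own. H2bc4, at chr13:23867631-23878163, stood at 13.9 and 11.6 CPM in WT testes, at 6.24, 6.44 and 5.91 in Ocn+/− and at 5.57, 9.05 and 3.29 in Ocn−/−. WT and mutant testes did not overlap, but the changes of −1.04 ± 0.33 and −1.09 ± 0.33 (log2, SE) missed the threshold narrowly (edgeR adjusted p = 0.0574 and 0.0587). Both passed with DESeq2 (adjusted p = 0.0473 and 0.043). In forebrain H2bc4 had 4.50, 4.15 and 4.80 CPM in WT, 3.04, 2.95 and 3.36 in Ocn+/− and 1.76, 2.41 and 2.48 in Ocn−/−. The 3 genotypes did not overlap, and they fell in the order WT, Ocn+/−, Ocn−/−. Only Ocn−/− against WT was called, at −1.0 ± 0.27 (edgeR adjusted p = 0.0362), or 2.00-fold lower, against −0.52 ± 0.26 in Ocn+/− (edgeR adjusted p = 0.267), which was −0.47 without WT 3. The call was lost without WT 1, WT 2, WT 3, Ocn−/− 1 or Ocn−/− 2, with values between −1.07 and −0.86, and without WT 3 the adjusted p of edgeR was 0.118.

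H2bc21, at chr3:96128435-96131054, has no stem-loop match and shares no 50-base stretch with another gene. In forebrain it stood at 7.47, 7.26 and 10.7 CPM in WT, at 5.82, 8.29 and 5.58 in Ocn+/− and at 4.63, 5.49 and 4.22 in Ocn−/−. The Ocn−/− forebrains were all below WT, and the Ocn+/− forebrains overlapped with WT but lay above Ocn−/−. The change was −0.80 ± 0.23 (log2, SE) in Ocn−/− (edgeR adjusted p = 0.0487), 1.74-fold lower, and was lost without any single WT or Ocn−/− forebrain or Ocn+/− 3, with values from −0.91 to −0.62 (the smallest without WT 3). In testes it lay between 9.56 and 17.8 CPM with overlapping groups. H2bc27, on chromosome 11 like H2ac25, lay between 29.7 and 34.3 CPM in WT forebrain, 27.4 and 27.9 in Ocn+/−, and 27.7 and 30.1 in Ocn−/−. The Ocn+/− forebrains were all below WT, and the Ocn−/− forebrains overlapped with WT. Its changes of −0.23 ± 0.11 and −0.16 ± 0.11 did not pass (edgeR adjusted p = 0.242 and 0.427), and without WT 3 they were −0.20 and −0.13. In testes H2bc27 had 4 and 12 counts in WT, 3, 8 and 12 in Ocn+/− and 4, 1 and 1 in Ocn−/−, and the change of −1.98 ± 0.90 (log2, SE) in Ocn−/− did not pass (edgeR adjusted p = 0.203). H2bc8 and H2bc24, the remaining H2B genes tested in testes, changed by −0.25 ± 0.94 and −1.0 ± 1.23 in Ocn+/− and by −0.72 ± 0.97 and −0.30 ± 1.17 in Ocn−/−, far from the threshold. H2bc1, an H2B of male germ cells, had no count in any library.

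The H3 and H4 genes could hardly be measured. In testes the 12 H3 genes together had between 12 and 31 counts a library and the 13 H4 genes between 4 and 23. In forebrain without WT 3 these sums were 10 to 34 and 16 to 21, but WT 3 alone had 70 and 137. H4c9, the one H4 gene tested, had 18 and 16 counts in WT testes, 8, 9 and 4 in Ocn+/− and 12, 1 and 10 in Ocn−/−. Its changes of −1.23 ± 0.68 and −1.19 ± 0.67 did not pass (edgeR adjusted p = 0.267 and 0.305). H3c14 and H3c15, which both share stretches with the gene model Gm20634 (all of those of H3c14 and 63.5% of those of H3c15), had 26, 14 and 8 counts together in WT forebrain, 16, 14 and 19 in Ocn+/− and 8, 13 and 9 in Ocn−/−, and neither was called. H3c4, second of its class in testes by counts though not per kb, had at most 10 counts in any library.

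Forebrain WT 3 held the highest CPM of 43 of the 64 members with a count in any forebrain. Among the stem-loop members that are not extended this was so for 20 of 31, among the extended members for 19 of 24, and among the H4 genes for 11 of 13. WT 3 had the fewest counts, and 1 count is 0.178 CPM in it, against 0.115 in WT 2 and 0.0672 in Ocn+/− 3. The share of all genes highest in WT 3 was not counted, so these numbers are not read as a trait of the histone genes. H4c4 had 49 counts in WT 3 and at most 7 in the other 8 forebrains, and H4c8 had 28 and at most 8. Summed over the 37 members that are not extended, the level was 22.6 CPM in WT 3, 3.36 and 5.41 in WT 1 and WT 2, and between 2.64 and 4.03 in the mutants. In testes the same sum was higher on average in the mutants: 2.67 ± 1.94 CPM (SD) over 2 WT testes, 5.17 ± 2.09 over 3 Ocn+/− testes and 4.11 ± 0.75 over 3 Ocn−/− testes. These means are 1.94 and 1.54 of WT, on 10 to 51 counts a library and with overlapping groups. The same library had the largest share of 18S rRNA and the most Rn7sk, which also lack poly(A) tails. Their part in these values was not tested. When genes with low counts were kept, 8 of 64 members were called in Ocn+/− and 10 of 64 in Ocn−/− forebrain, beside 4.37% and 5.19% of all genes under that setting, among them H1f3, H1f4, H4c8 and H3c11, of which all had most counts in WT 3.

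**Figure D4:**
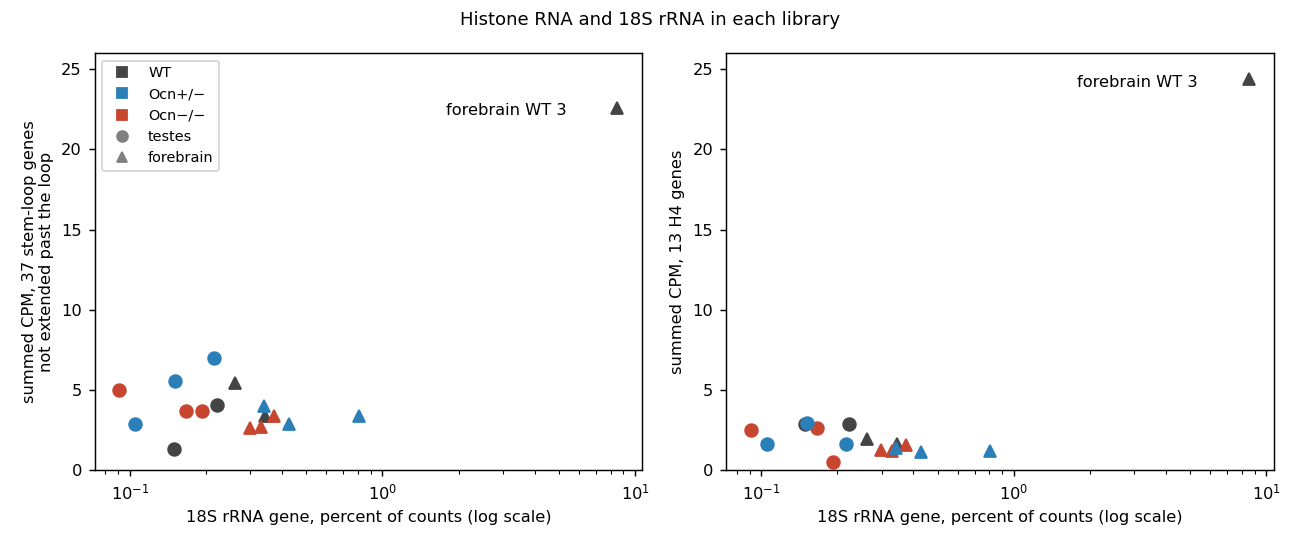
Summed CPM (y axis) of the 37 stem-loop genes not extended past the loop (left) and of the 13 H4 genes (right) against the share of counts on the 18S rRNA gene (x axis, log scale); each point is 1 library, circles testes, triangles forebrain. Forebrain WT 3 lies alone at 8.50% and 22.6 and 24.4 CPM, and the other 16 libraries lie at or below 0.805% and 7.01 CPM.

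By class, the summed level of the H1 genes was 902 ± 55.8 CPM (SD, n = 2) in WT testes, 529 ± 92.4 (n = 3) in Ocn+/− and 473 ± 66.4 (n = 3) in Ocn−/−, that is 0.586 and 0.524 of WT, with H1f0 as 90.3% of the counts. In forebrain it was 307 ± 28.5, 207 ± 41.0 and 192 ± 39.4 CPM (n = 3 each), or 0.674 and 0.625 of WT. The H2A sum in forebrain, 95.2% of it H2ac25, was 0.702 and 0.667 of WT, whereas in testes it was 1.06 and 0.797 of WT. All Ocn+/− testes lay between the WT testes, at 11.01 and 16.65 CPM. Of the Ocn−/− testes, replicate 1 lay between them too (15.2 CPM), and replicates 2 and 3 lay below both (8.79 and 9.10 CPM). The H2B sum was 0.741 and 0.679 of WT in testes, and 0.784 and 0.754 in forebrain. Without forebrain WT 3 the forebrain ratios were 0.710 and 0.659 for H1, 0.731 and 0.695 for H2A, and 0.850 and 0.817 for H2B. The H3 and H4 sums in forebrain were 0.260 and 0.222, and 0.134 and 0.146 of WT, but they rested on WT 3. Without it they became 0.584 and 0.501, and 0.703 and 0.761. In testes the H3 sums were 0.860 and 0.792 and the H4 sums 0.720 and 0.655 of WT, on the few counts given above.

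Pups of both mutant genotypes had mothers of the same genotype, so that Ocn−/− against Ocn+/− does not differ in it. Litter and sire may still differ between these pups and cannot be told apart from the pup's alleles here. No member was called between Ocn−/− and Ocn+/− in either organ (0 of 10 in testes and 0 of 11 in forebrain), where edgeR called 0% and 0.00622% of all genes. At an unadjusted p under 0.05 there were 2 members in testes, H1f10 and H2bc27, and 0 in forebrain. DESeq2 called H1f10 in testes, the difference that shrank with the offset for GC content and length, and no member in forebrain. For H1f2 the difference was −0.22 ± 0.21 (log2, SE) in testes and 0.20 ± 0.34 in forebrain, and for H1f0 it was −0.12 ± 0.14 and −0.10 ± 0.17.

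Whether the changes against WT differed between organs was tested on the mean of both mutant genotypes in a joint fit, in which 15 members passed the filter. None of them was called, while 2.96% of all genes were, and 2 of the 15, H2ac25 and H2bc23, had an unadjusted p under 0.05. DESeq2 also called none, and 4 of 70 (H3c3, H3c7, H4c4 and H4c8, named after their values were seen) were called when genes with low counts were kept, beside 3.12% of all genes. Without forebrain WT 3 the count was also 0. It is not stated whether a pup gave both organs. The joint fit, also used to compare the organs below, treats all libraries as independent. H1f2 changed by 0.73 ± 0.37 less in testes than in forebrain (log2, SE, edgeR adjusted p = 0.3), H2ac25 by 0.48 ± 0.22 less (edgeR adjusted p = 0.233), and H1f0 by 0.26 ± 0.22 more (edgeR adjusted p = 0.571). The call of H2ac25 in forebrain and not in testes is thus not shown to be a difference between the organs.

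The organs themselves differed in 12 of the 15 members (13 without forebrain WT 3), as did 84.4% of all genes tested. H2bc27 was 57.2-fold higher in forebrain (log2 −5.84 ± 0.18, testes against forebrain, edgeR adjusted p = 5.24e-20), with 1 to 12 counts in testes and 191 to 414 in forebrain. H2ac25 was 6.12-fold higher in forebrain (−2.61 ± 0.10, edgeR adjusted p = 4.19e-18). Higher in testes were H1f0 (1.35 ± 0.10, edgeR adjusted p = 2.92e-10), H2bc4 (0.98 ± 0.17, edgeR adjusted p = 1.07e-05), H1f2 (0.83 ± 0.17, edgeR adjusted p = 0.00018), H2bc21 (0.73 ± 0.15, edgeR adjusted p = 8e-05) and H4c9 (1.33 ± 0.42, edgeR adjusted p = 0.00579). H2bc23 and H2bc24 share more than 90% of their stretches, and together they had 7 to 26 counts in each testis and 0 to 6 in each forebrain. H1f10 had the opposite sign from H1f0, at −0.61 ± 0.10, but turned to 0.91 with an offset for GC content and length, so that its direction was not settled. In bulk tissue, fewer cells that express a gene and less RNA per cell cannot be told apart.

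The genes around histone supply were counted from lists written for this work with earlier results known. Of 24 tested genes of histone mRNA processing, 2 rose and 1 fell in Ocn+/− testes, 3 rose in Ocn−/− testes, and 2 and 3 rose in forebrain. Upf1, a helicase needed for the decay of histone mRNA, stood at 37.2 ± 3.50 CPM (SD, n = 2) in WT testes, 72.2 ± 15.6 in Ocn+/− and 70.2 ± 9.71 in Ocn−/− (log2 0.96 ± 0.18 and 0.92 ± 0.18, edgeR adjusted p = 0.00596 and 0.00778). In forebrain it rose by 0.43 ± 0.12 in Ocn−/− (edgeR adjusted p = 0.0464). Snrpd3 rose by 0.65 in Ocn+/− testes and Snrpe fell by 0.56, Cpsf2 and Ncbp1 rose by 0.46 and 0.43 in Ocn−/− testes, and Lsm1 and Lsm11 rose in forebrain of both genotypes, by 0.83 and 0.32 in Ocn+/− and 0.91 and 0.31 in Ocn−/−. Lsm11 belongs to the U7 snRNP, which cuts histone pre-mRNA after the stem-loop.

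Of 24 histone chaperone genes, 5 rose and 3 fell in Ocn+/− testes and 2 rose and 1 fell in Ocn−/− testes, whereas 2 and 1 fell in forebrain. Chaf1a, the large subunit of chromatin assembly factor 1, rose by 0.79 ± 0.18 and 0.61 ± 0.17 (log2, SE) in testes, and Nap1l1, a chaperone of H2A and H2B, fell by 0.67 ± 0.13 and 0.49 ± 0.13 in testes and by 0.27 ± 0.07 and 0.36 ± 0.08 in forebrain. Of 9 replacement histone genes tested, H3f3b, which encodes the replication-independent H3.3, was the only one called. It fell by 0.66 ± 0.18 in both mutant genotypes in testes (edgeR adjusted p = 0.0362 and 0.0448), a call that was lost without either WT testis, without several of the other testes, and with the offset for GC content and length (−0.46 and −0.56, edgeR adjusted p = 0.169 and 0.0789). Of 41 S-phase genes 10 rose and 1 fell in Ocn+/− testes and 6 rose in Ocn−/− testes, with Uhrf1, Pold1, Mcm2 and E2f1 first by p in Ocn+/−, and 0 were called in forebrain of either genotype. Of 16 mitosis genes, 5 rose in testes of each mutant genotype, Aurkb and Aurka among them, and 0 in forebrain. Of all genes tested in testes, 8.25% and 5.64% were called either way. The mitosis calls rest on 2 WT testes. Aurka and Aurkb kept theirs in 16 of 18 alternatives in each mutant genotype, and the other mitosis genes called kept theirs in 12 to 16. Over the first 4 lists, 22 genes were called in Ocn+/− testes and 12 in Ocn−/− testes (22.7% and 12.4% of 97 tested), and 4 in forebrain of either genotype (4.12%), beside the shares of all genes given above. Without testes WT 1 these counts were 1 and 2 and without WT 2 they were 0 and 0, and without forebrain WT 3 both forebrain counts were 0, so that none of the forebrain changes of Upf1, Lsm1, Lsm11 and Nap1l1 was then called.

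Markers of other cells moved between the same groups. Of all genes tested in testes, 8.25% and 5.64% were called either way and 4.36% and 3.09% lower, Ocn+/− first. In forebrain these shares were 3.89% and 4.85%, and 2.68% and 3.05%. Without forebrain WT 3 they were 1.11% and 1.15% either way. A single gene called in a list is therefore not read as a change of that list. In testes the summed level of 6 endothelial genes ran from 539 to 552 CPM in WT, 340 to 403 in Ocn+/− and 321 to 362 in Ocn−/−, with 3 and 5 of the 6 called lower. The 7 Leydig cell genes summed to between 1870 and 1980 CPM in WT testes, 910 and 1470 in Ocn+/− and 928 and 1370 in Ocn−/−, with 1 of 7 lower in each. The 7 erythroid genes ran from 2600 to 6870 CPM in WT testes, 865 to 3940 in Ocn+/− and 1320 to 2520 in Ocn−/−, and none of the 6 tested was called. The 10 Sertoli cell genes overlapped between genotypes, at 2530 to 3790 CPM, with 1 gene higher in both mutants. The 8 macrophage and microglia genes summed to 111 to 119 CPM in WT testes, 123 to 152 in Ocn+/− and 72.5 to 118 in Ocn−/−, with 1 gene higher in Ocn+/−. The 12 germ cell genes, at 431 to 498 CPM in WT and 387 to 445 in the mutants, had 1 gene lower in each. In forebrain 3 of 6 erythroid genes were lower in Ocn+/− and 1 in Ocn−/−, with sums of 523 to 723 CPM in WT, 357 to 408 in Ocn+/− and 487 to 599 in Ocn−/−. Of the 6 endothelial genes 2 were lower in Ocn+/− and 1 in Ocn−/− forebrain, with overlapping sums of 134 to 186 CPM. Of the 8 excitatory neuron genes 1 was higher in Ocn+/− and 1 lower in Ocn−/−, and of 7 tested macrophage and microglia genes 1 was higher in both. None of 8 radial glia genes and 6 hippocampal genes was called, at sums of 929 to 1160 and 498 to 724 CPM. With forebrain WT 3 left out, 2 erythroid genes were lower and 1 radial glia gene higher in Ocn+/−, the 1 macrophage and microglia gene was higher in both, and no other gene of these lists was called. The part of these cells in the histone values was not tested.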

How the data were processed

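RNA-seq libraries (17) were grouped by their labels. The study's methods give poly-T selection, trimming with Trim Galore 0.6.6, alignment to GRCm39 with STAR 2.7.8a and counting with RSEM 1.3.3. The authors deposited expected counts per gene, not normalized, in which reads that match several genes are divided. GENCODE release and strandedness are not given in the sources used here. Names came from GENCODE M39 (54749 of 55359 identifiers, all 76 members). Counts were rounded and fitted in R 4.3.3 with edgeR 4.0.16 (TMM, filterByExpr, robust quasi-likelihood, two-sided tests, no covariates), each organ alone with 3 genotypes and both organs together. A call is an adjusted p under 0.05 (Benjamini-Hochberg, over all genes). Fits were tested on simulated data. DESeq2 1.42.0 was an alternative, as were other normalizations, filters, offsets, a likelihood ratio test, a replicate block, only the compared genotypes, and each library left out. The text names members called, the 2 highest of each class per organ, H1f0, H1f10 and germ cell histones, and at most 4 called genes of each other list. H1f3, H1f4, H3c11 and the pairs were added after their values were seen. Members and lists were chosen with earlier results of these data known.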

Additional observations from a re-analysis of the deposited data

Results flagged for a closer look

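No group held more than 3 libraries, so no library was tested as an outlier. None of the 15 histone genes tested for it passed the interaction test between testes and forebrain, which does not show that their changes were equal, and the other members were not tested. Of the 97 tested genes of the 4 lists around histone supply, 7 passed (7.22%), beside 2.96% of all genes. All 7 had a more positive change in mutant testes than in mutant forebrain (mean of both mutant genotypes against WT, edgeR quasi-likelihood test over all genes). The difference on the log2 scale was 1.01 for Tonsl (adjusted p = 0.0315), 1.00 for Cdt1 (0.0279), 0.73 for Uhrf1 (0.0488), 0.65 for Mcm7 (0.0163), 0.64 for Cdk2 (0.0472), 0.59 for Hjurp (0.0231) and 0.53 for Lig1 (0.0375). Cdt1, which licenses replication origins, averaged 32.2 ± 1.51 CPM (SD) over the WT testes (n = 2), against 60.5 ± 11.5 for Ocn+/− testes and 47 ± 8.85 for Ocn−/− testes (n = 3 each). Its forebrain means were 9.23 ± 1.25 for WT, 8.0 ± 0.49 for Ocn+/− and 6.97 ± 1.77 for Ocn−/−. Hjurp, the chaperone of the centromeric H3 Cenpa, averaged 152 ± 4.75 CPM over WT testes, against 209 ± 18.7 for Ocn+/− and 205 ± 22 for Ocn−/−, and 34.9 ± 2.88, 29.9 ± 1.67 and 32.6 ± 1.13 over the forebrains in the same order. None of the 7 passed without testes WT 1 or without testes WT 2. Of 26 alternatives, Cdk2 kept its call in 9, Lig1 in 10 and Uhrf1 in 11, and the other 4 in 20 to 23.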

How the results depend on the processing

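H1f2 in forebrain and in Ocn−/− testes, and H2ac25 in Ocn−/− forebrain, kept direction and call under every alternative run. The number of histone genes called in Ocn+/− forebrain (2) was 1 with library size alone and 8 with no filter, and in Ocn−/− forebrain (5) it was 3 and 10. In Ocn+/− testes (2) it was 4 with no filter, in Ocn−/− testes (2) it was 4 with the GC and length offset, and between Ocn−/− and Ocn+/− testes (0) it was 1 with DESeq2, 1 with the likelihood ratio test and 1 with no filter. Testes against forebrain (12) gave 19 with no filter and 6 with at least 10 counts in every library, and the interaction (0) gave 4 with no filter. Leaving out single libraries gave 1 to 4 and 2 to 6 in forebrain, and 0 to 3 and 1 to 3 in testes, Ocn+/− first. For the 4 lists together, Ocn+/− testes (22) gave 13 with the offset, 8 with block and offset and 0 to 32 without single libraries; Ocn−/− testes (12) gave 20 with no filter and 0 to 20. Forebrain gave 1 with library size alone and 0 to 4 in Ocn+/− (4), and 7 with no filter, 9 with block and offset and 0 to 5 in Ocn−/− (4). H1f10 reversed: in Ocn+/− testes −0.26 with the offset and −0.30 with block and offset; in Ocn+/− forebrain −0.054 and −0.062, and −0.026 to 0.20 without single libraries; in Ocn−/− forebrain 0.037 with library size alone and −0.26 to 0.060; between organs 0.91 and 0.93. Without single libraries H2bc21 in testes gave −0.50 to 0.12 for Ocn+/−, then −0.46 to 0.16 for Ocn−/−, positive without WT 2. The cause was not tested. Library size alone moved the median log2 change of all genes to 0.11 in Ocn−/− forebrain and 0.40 between organs. Same-numbered libraries of an organ correlated at −0.09 to 0.09 in testes and −0.04 to 0.15 in forebrain. Libraries with other numbers did so at −0.12 to 0.12 and −0.20 to 0.11. These are deviations from means of 2 or 3 libraries, which depend on each other, so they cannot show whether a number marks a pairing. With a replicate block 3 and 5 members were called in forebrain, 2 and 3 in testes, 13 between organs and 0 for the interaction. The filter on low counts left 66 members in testes and 65 in forebrain untested.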
